A study of Rattus norvegicus with 12 samples.

Results

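The genes described here encode enzymes of the branches that lead from farnesyl pyrophosphate to products other than sterols. Not all of them use farnesyl pyrophosphate itself. The mevalonate pathway turns acetyl units into isoprenoid pyrophosphates, and at farnesyl pyrophosphate it divides. Squalene synthase commits the intermediate to cholesterol, whereas the other branches lengthen it into geranylgeranyl pyrophosphate, into the side chain of ubiquinone and into dolichol, the lipid carrier for N-linked sugar chains, or attach it to proteins such as small GTPases. In liver, most of the flux normally ends in cholesterol, and transcription of the shared enzymes follows the sterol supply through SREBP2, a membrane-bound transcription factor.

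Members were taken by name from the deposited table of hepatic transcripts. The 9 genes sought were Ggps1, Pdss1, Pdss2, Coq2, Dhdds, Fnta, Fntb, Pggt1b and Rabggta. Of these, 8 had at least 1 row under their name, with 13 of the 34391 listed rows in all, and Pdss1 was not analysed here because no row carried that name. Where a gene had several rows, the row with the highest mean over the livers was used as its main row. Of the listed rows, 21718 were above 0 in at least 1 liver and were tested, and the main rows of all 8 genes found were among them.

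All animals were female rats of the inbred alcohol-preferring line iP10a, which drinks ethanol voluntarily. The 6 EtOH animals had a free choice of 10%, 20% and 30% ethanol (v/v) beside water and food for 23 weeks, and the 6 control animals had water and food only. Livers were taken at 38 weeks of age, except that the label of EtOH animal 6 gives 39 weeks. Poly(A) RNA of each liver was sequenced as 1 library in 101-nucleotide paired-end reads. The measure is RPKM, reads scaled to transcript length and to the mapped reads of the library, so levels can be compared between genes.

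From 2610238 to 4318141 whole reads could be recovered from the RPKM steps in the control livers and from 3945593 to 6030028 in the EtOH livers. The EtOH livers were thus on the whole more deeply sequenced. The study reported more mapped reads per sample on average than were recovered here. Whether a recovered unit is a read or a read pair was not tested. The genes described here had few reads, from 0 to 187 in a single liver. Hepatocyte transcripts dominated the libraries, with a summed RPKM of Alb, Ttr, Cps1 and Serpina1 from 67480 to 96018 in control and from 76486 to 102941 in EtOH livers. Of these 4, Cps1, a urea cycle enzyme, was called higher in EtOH livers (585.8 ± 61.3 against 849.7 ± 103 RPKM, SD, n = 6 each; log2 fold change 0.58, adjusted p = 0.0224, limma), without overlap between groups. Its call ended without control liver 2 or EtOH liver 2, 3 or 5 (adjusted p from 0.0509 to 0.0581, limma). Markers of other liver cells lay far below these hepatocyte transcripts, and some were higher in EtOH livers. They were not all low beside the members. The Kupffer cell marker Clec4f averaged 66.4 RPKM in control and 82.4 in EtOH livers, above every member. The Kupffer cell markers Cd68, Clec4f and Cd163 summed to 66.9 to 104.1 RPKM in control and 91.1 to 112.0 in EtOH livers, and 2 of 3 were called higher (Clec4f, adjusted p = 0.0246, and Cd163, adjusted p = 0.0427, limma). Leaving out control liver 4 or EtOH liver 1, 3, 4 or 5 ended the call of Clec4f (adjusted p from 0.0502 to 0.0535, limma), and leaving out any liver but control 6 and EtOH 6 ended that of Cd163 (adjusted p from 0.0563 to 0.0896, limma). For stellate cells the 5 markers summed to 4.44 to 7.98 RPKM in control and 7.05 to 11.1 in EtOH livers, and for endothelial cells the 3 markers found summed to 24.1 to 31.1 and 27.8 to 40.0, with 0 of these 8 called by limma and 4 of them higher at an unadjusted p under 0.05. The 3 cholangiocyte markers summed to 4.27 to 8.16 and 3.69 to 7.67 RPKM. No marker tested was at 0 in all livers. The part of other cell types in the results below was not tested, and in whole liver fewer cells of a type and less RNA per cell cannot be told apart.

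The start regions of Ggps1 and Rabggta, the members with the smallest unadjusted p above and below 0, are shown beside that of Fdps, the farnesyl pyrophosphate synthase whose product the branches share. Each is the 250 bases before the annotated transcription start, 5′ to 3′ on the strand of the gene, from RefSeq on build GRCr8: chr17:55958500-55958749 on the plus strand for Ggps1, chr15:33183272-33183521 on the minus strand for Rabggta and chr2:176804817-176805066 on the minus strand for Fdps. Capitals mark matches, on either strand, to CCAAT, the box bound by NF-Y, or to GGGCGG, the GC box bound by Sp1.
Ggps1: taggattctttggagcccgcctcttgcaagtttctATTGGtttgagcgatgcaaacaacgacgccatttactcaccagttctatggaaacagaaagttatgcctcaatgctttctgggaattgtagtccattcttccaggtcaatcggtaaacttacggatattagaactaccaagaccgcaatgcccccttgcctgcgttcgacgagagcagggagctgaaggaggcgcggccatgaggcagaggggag
Rabggta: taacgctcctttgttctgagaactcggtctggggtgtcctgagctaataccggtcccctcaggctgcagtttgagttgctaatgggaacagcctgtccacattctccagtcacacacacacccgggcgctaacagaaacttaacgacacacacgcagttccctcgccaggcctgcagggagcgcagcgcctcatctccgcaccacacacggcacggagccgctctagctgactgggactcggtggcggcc
Fdps: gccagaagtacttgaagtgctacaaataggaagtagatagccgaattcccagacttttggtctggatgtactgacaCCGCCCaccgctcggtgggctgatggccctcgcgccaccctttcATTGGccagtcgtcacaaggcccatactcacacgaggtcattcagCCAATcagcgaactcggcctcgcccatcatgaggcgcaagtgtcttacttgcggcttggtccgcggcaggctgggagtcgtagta

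The Fdps sequence holds 2 CCAAT matches and 1 GGGCGG match, Ggps1 holds 1 CCAAT match, and Rabggta holds neither. Counted over the full windows of 300 bases, which add 50 bases after the start, CCAAT was found in 4 of the 7 members with a window (Ggps1, Pdss2, Dhdds and Fntb), 1 match in each. It was found in 5 of the 5 windows at hand for enzymes before the branch point (Hmgcs1, Mvk, Mvd, Idi1 and Fdps), with 2 to 5 matches in each. Of all 33469 windows, 37.5% held CCAAT and 11.2% held at least 2 matches. GGGCGG was found in 3 of 7 member windows and 4 of 5 of the others, against 33.1% of all windows. The consensus TCACNCCAC of the sterol regulatory element was found in 0 of 7 and 0 of 5 windows and in 1.12% of all. A match describes letters in a window and is not a measured site, the lack of a match says only that these letters are not in the window, and the searches used both strands with no overlap between the motifs. Coq2 and Fnta had no entry.

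The question the comparison answers for these genes is whether the branches away from sterols moved with ethanol drinking as the shared enzymes did. The levels of the 8 genes in every liver are plotted first. By limma on quantile-normalized log2(RPKM + 0.5), with Benjamini-Hochberg adjustment over all 21718 transcripts at 0.05, 0 of the 8 were called, against 526 of all transcripts or 2.42%, with 1.29% called lower in EtOH livers and 1.13% higher. Lower transcripts were 53.4% of the calls in this fit, 63.5% with median scaling and 83.7% without normalization between livers. At an unadjusted p under 0.05, 5 of the 8 passed (Ggps1, Dhdds, Fnta, Fntb and Rabggta), against 15.5% of all transcripts and 24.3% of those averaging 1 RPKM or more over the livers, as all 8 did. The log2 fold change was above 0 for 3 genes and below 0 for 5, with a median of -0.20 against 0.00019 over all transcripts. Groups overlapped for all 8, whereas 3.10% of all transcripts had no overlap between groups. limma voom on the recovered reads called 1 of the 8, Rabggta, against 2.70% of all transcripts, and the pooled-error test on square-root values called 0.

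**Figure D1:**
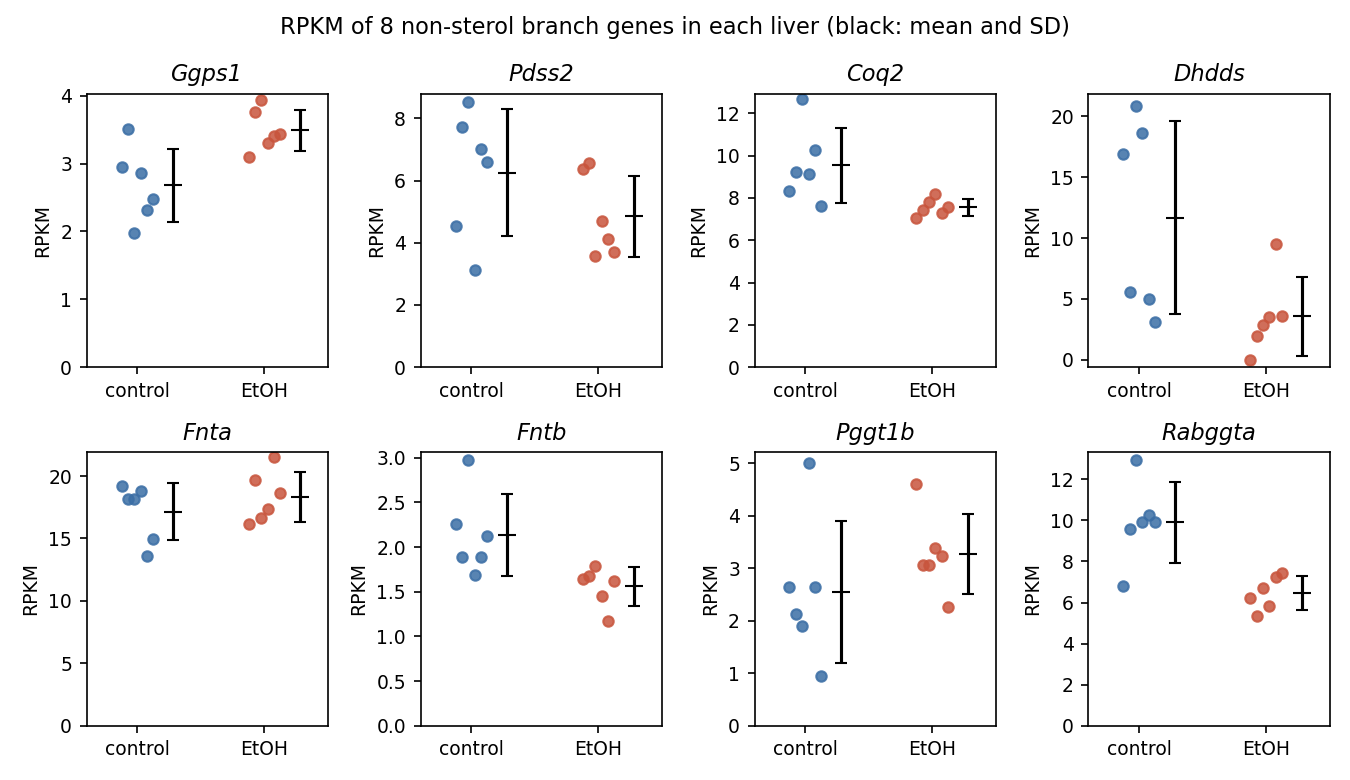
RPKM of the 8 genes in each of the 6 control (blue) and 6 EtOH (red) livers, 1 panel per gene with its own linear axis, black marks giving the mean and SD. All 6 EtOH livers lay above the control mean for Ggps1, and the main row of Dhdds split the control livers into 3 above 16 and 3 below 6 RPKM.

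Ggps1 encodes geranylgeranyl pyrophosphate synthase, which adds an isopentenyl unit to farnesyl pyrophosphate and so supplies the lipid of many small GTPases. Its main row lies at chromosome 17, 59458483 to 59471428, in the coordinates the authors list, on a build that no source at hand names. The control livers 1 to 6 had 2.94, 3.50, 1.97, 2.85, 2.32 and 2.48 RPKM and the EtOH livers 1 to 6 had 3.09, 3.76, 3.93, 3.30, 3.40 and 3.44. All EtOH livers thus lay above the control mean, and 2 of them above the highest control, so the groups overlapped through control liver 2. The means were 2.68 ± 0.538 in control and 3.49 ± 0.308 in EtOH livers (SD, n = 6 each), resting on 189 and 344 reads. The log2 fold change was 0.38 (SE 0.13), with an adjusted p of 0.169 by limma and a 95% interval of 1.07-fold to 1.59-fold. The exact permutation test of the mean RPKM gave p = 0.0130, two-sided and unadjusted over the 8 genes so tested, where the smallest possible is 0.00216. The exact tests of mean RPKM used values not normalized between livers. On that scale the median log2 fold change of transcripts averaging 1 RPKM or more was -0.08. A second row under the name was at 0 in every liver.

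The ubiquinone side chain is made by a synthase of Pdss1 and Pdss2 subunits, and Coq2 joins the chain to the ring precursor in mitochondria. Pdss2 ranged from 3.14 to 8.53 RPKM in control livers (median 6.81) and from 3.59 to 6.57 in EtOH livers (median 4.42), so the EtOH range lay wholly within the control range. With 119 and 123 reads over 6 livers each, the log2 fold change of -0.21 (SE 0.23) had a 95% interval from -0.72 to 0.29, which leaves a fall to 0.608-fold and a rise to 1.23-fold both within reach. The adjusted p was 0.677 by limma.

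Coq2 had 8.32, 9.25, 12.7, 9.15, 10.3 and 7.61 RPKM in control livers 1 to 6 and 7.03, 7.44, 7.82, 8.16, 7.29 and 7.59 in EtOH livers 1 to 6. The EtOH livers sat close together at the lower end of the control range, with 4 of 6 below the lowest control. The means were 9.54 ± 1.77 and 7.55 ± 0.400 RPKM (SD, n = 6 each), and the exact permutation test gave p = 0.00866, unadjusted and without normalization between livers. On the quantile-normalized log2 scale the difference was -0.19 (SE 0.09), with a 95% interval from -0.39 to 0.01 and an adjusted p of 0.358 by limma.

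Dhdds encodes the catalytic subunit of cis-prenyltransferase, which builds the long chain of dolichol with the partner subunit encoded by Nus1. The table lists 5 rows under the name, all starting at 152718306 on chromosome 5 in the authors' coordinates, 4 of them ending at 152744637 and row 5 at 152736268. The main row, row 1, had 16.9, 5.60, 20.8, 18.6, 4.97 and 3.12 RPKM in control livers 1 to 6 and 0, 1.92, 2.84, 3.48, 9.54 and 3.58 in EtOH livers 1 to 6. In control livers 1, 3 and 4 all Dhdds reads were assigned to row 1 and the other 4 rows were at 0. In EtOH liver 1 no read was assigned to row 1, which allows up to 0.447 RPKM there at 3 reads (counting error only), and 114 reads lay in rows 3 and 5. In EtOH liver 5, 70.4% of the summed RPKM was in row 1 and the rest in row 2. In the other 7 livers all 5 rows were above 0 and row 1 held 15.9% to 25.9%. These rows share most of their genomic span, and how the counting divided reads between them in each liver is uncertain.

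**Figure D2:**
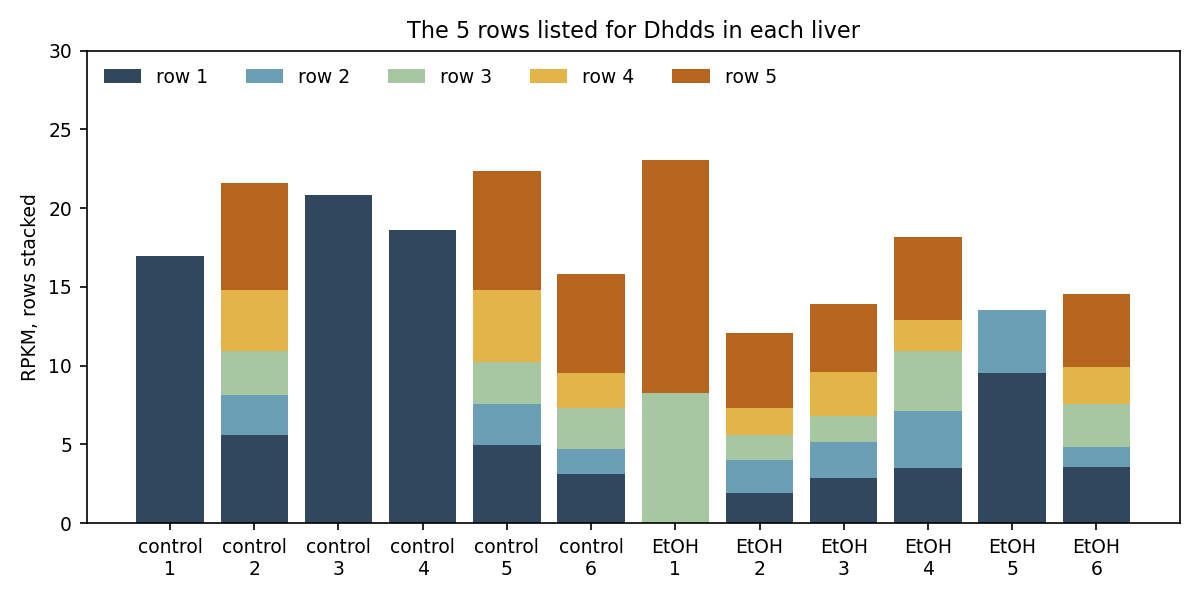
RPKM of the 5 rows listed for Dhdds, stacked, in each of the 12 livers (linear axis from 0). Control livers 1, 3 and 4 show row 1 only, and EtOH liver 1 shows rows 3 and 5 only, while the stacked height stays between 12.1 and 23.1 RPKM.

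The difference of row 1 depended on this division. For row 1 the means were 11.7 ± 7.93 RPKM in control and 3.56 ± 3.21 in EtOH livers (SD, n = 6 each), with a log2 fold change of -1.63 (SE 0.66), an adjusted p of 0.255 by limma and a p of 0.0563 by exact permutation test. Rows 2 to 5 had log2 fold changes of the opposite sign, from 0.16 to 1.21, none called, with the lowest adjusted p at 0.546 (limma). Summed over the 5 rows, the RPKM ran from 15.8 to 22.4 in control livers (median 19.7) and from 12.1 to 23.1 in EtOH livers (median 14.2). Of the EtOH livers 4 lay below the lowest control and 1, EtOH liver 1, above the highest. The summed means were 19.4 ± 2.65 and 15.9 ± 4.06 RPKM (SD, n = 6 each), on 558 and 583 reads. The exact permutation test gave p = 0.106, which does not show that the groups were equal. With all rows of each gene summed, limma gave a log2 fold change of -0.16 (SE 0.13, 95% interval from -0.44 to 0.13) and an adjusted p of 0.561, in a fit that called 6.40% of 15270 genes.

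The protein prenyltransferases share subunits. Fnta encodes the alpha subunit of both farnesyl transferase and the type I protein geranylgeranyl transferase, and Fntb and Pggt1b encode their respective beta subunits. Fnta had the highest mean level among the main rows, though below the 5 Dhdds rows summed in control livers, and ran from 13.6 to 19.2 RPKM in control livers (median 18.1) and from 16.1 to 21.5 in EtOH livers (median 18.0). Its RPKM means were 17.1 ± 2.29 and 18.3 ± 2.04 (SD, n = 6 each; exact permutation test, p = 0.372). The log2 fold change after quantile normalization was 0.24 (SE 0.10, adjusted p = 0.296, limma) and without it 0.10.

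Fntb had 2.26, 1.89, 2.97, 1.68, 1.88 and 2.12 RPKM in control livers 1 to 6 and 1.64, 1.67, 1.79, 1.45, 1.17 and 1.62 in EtOH livers 1 to 6. The EtOH livers were low, with 5 of 6 below the lowest control. The means were 2.13 ± 0.458 and 1.56 ± 0.218 RPKM (SD, n = 6 each; exact permutation test, p = 0.00433, unadjusted and without normalization between livers), from 123 and 126 reads. The log2 fold change of -0.35 (SE 0.16) had an adjusted p of 0.321 by limma.

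Pggt1b ranged from 0.945 to 5.01 RPKM in control livers (median 2.38) and from 2.26 to 4.60 in EtOH livers (median 3.14). Control livers held both the lowest and the highest value. With 86 and 159 reads, the log2 fold change of 0.44 (SE 0.26) had a 95% interval from 0.923-fold to 2.00-fold and an adjusted p of 0.464 by limma.

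The alpha subunit transcript exceeded the sum of both beta subunit transcripts in 12 of 12 livers, by a ratio of 2.58 to 4.89, and this ratio averaged 3.81 ± 0.812 in control and 3.91 ± 0.884 in EtOH livers (SD, n = 6 each; exact permutation test, p = 0.844). Ratios to Fntb and Pggt1b alone were also taken. Fntb over Pggt1b averaged 1.10 ± 0.690 in control and 0.50 ± 0.143 in EtOH livers (SD, n = 6 each; exact permutation test, p = 0.0390), although all EtOH values lay within the control range of 0.336 to 2.25. Fnta over Fntb averaged 8.28 ± 1.88 and 12.1 ± 3.25 (SD, n = 6 each; exact permutation test, p = 0.0152). These 3 ratios were computed and their p values are unadjusted, and the beta subunits had as few as 7 reads in a liver.

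Rabggta encodes the alpha subunit of the Rab geranylgeranyl transferase, which attaches geranylgeranyl groups to Rab GTPases of vesicle traffic, and its main row lies at chromosome 15, 33862275 to 33868619, in the authors' coordinates. The control livers 1 to 6 had 6.79, 9.59, 13.0, 9.92, 10.3 and 9.93 RPKM and the EtOH livers 1 to 6 had 6.22, 5.35, 6.70, 5.83, 7.24 and 7.43. The groups overlapped only through control liver 1, and 4 of 6 EtOH livers lay below it. The means were 9.91 ± 1.96 and 6.46 ± 0.811 RPKM (SD, n = 6 each; exact permutation test, p = 0.00649, unadjusted and without normalization between livers). Rabggta had the smallest limma p of the 8 genes (unadjusted 0.00363), with a log2 fold change of -0.46 (SE 0.13, 95% interval from -0.73 to -0.18) and an adjusted p of 0.0868. Without control liver 1 the adjusted p was 0.0148 and the log2 fold change -0.56. It also passed in limma voom (adjusted p = 0.0396), without normalization (adjusted p = 0.0360) and when only transcripts averaging 1 RPKM or more were tested (adjusted p = 0.0466). In limma voom 76.3% of all calls were lower in EtOH livers, and without normalization 83.7%, against 53.4% in the main fit. Rabggta was not called in the other 20 alternatives, from 0.0501 with rows summed to 0.171 without EtOH liver 2 (adjusted p, limma). The catalytic partner Rabggtb was 25.8 ± 3.46 RPKM in control and 24.9 ± 2.55 in EtOH livers (SD, n = 6 each), with a log2 fold change of 0.11 and an adjusted p of 0.649 by limma.

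In order of mean RPKM over the 12 livers the genes ran Fnta, Coq2, Rabggta, Dhdds row 1, Pdss2, Ggps1, Pggt1b and Fntb, from 17.7 to 1.85. Fnta exceeded Coq2 in 12 of 12 livers, Pdss2 exceeded Ggps1 in 11 and Pggt1b exceeded Fntb in 10. The order was not kept within livers from Coq2 to Pdss2, since Coq2 exceeded Rabggta in 8 of 12 livers, Rabggta exceeded Dhdds row 1 in 8 and Dhdds row 1 exceeded Pdss2 in only 4. Ggps1 exceeded Pggt1b in 8.

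The spread between animals was smaller in EtOH livers for 7 of the 8 genes, all but Dhdds row 1. The coefficient of variation of Coq2 was 18.6% in control and 5.29% in EtOH livers, and that of Ggps1 20.1% and 8.83%. Counting error alone, at the mean reads per liver, would give 12.6% and 12.0% for Coq2 and 17.8% and 13.2% for Ggps1. In EtOH livers the coefficient was below this counting value for Ggps1, Coq2, Fntb and Rabggta (12.5% against 12.6%) and above it for Pdss2 (27.1% against 22.1%), Fnta (11.1% against 7.94%), Pggt1b (23.3% against 19.4%) and Dhdds row 1 (90.2% against 19.5%). Among 11077 transcripts averaging 1 RPKM or more, 63.9% also had the smaller coefficient in EtOH livers, whose libraries were deeper. The part of depth in this difference was not tested.

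Transcripts of the enzymes before the branch point were lower in EtOH livers by sequencing. All 6 tested were called lower, among them Hmgcs1, Pmvk, Mvd, Idi1 and Fdps, with a median log2 fold change of -1.50 and adjusted p values from 0.000506 to 0.0246 by limma. The adjusted p of Pmvk was 0.0635 without EtOH liver 2 (limma) and 0.0604 in the pooled-error test on square-root values. Both enzymes tested of the sterol branch, Fdft1 (squalene synthase) and Sqle (squalene epoxidase), were called lower too, Sqle by -2.04. By the study's qRT-PCR on the same samples, Mvd, Idi1, Fdft1 and Sqle were also lower, but Hmgcs1 and Fdps did not change significantly. The study also listed Pmvk as not altered. Fdps, which makes farnesyl pyrophosphate, was at 400.2 to 628 RPKM in control and 191 to 279 in EtOH livers, and Fdft1 at 46.5 to 77.0 and 19.1 to 33.7, with no overlap for either. These lists were chosen with earlier results of these animals known.

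**Figure D3:**
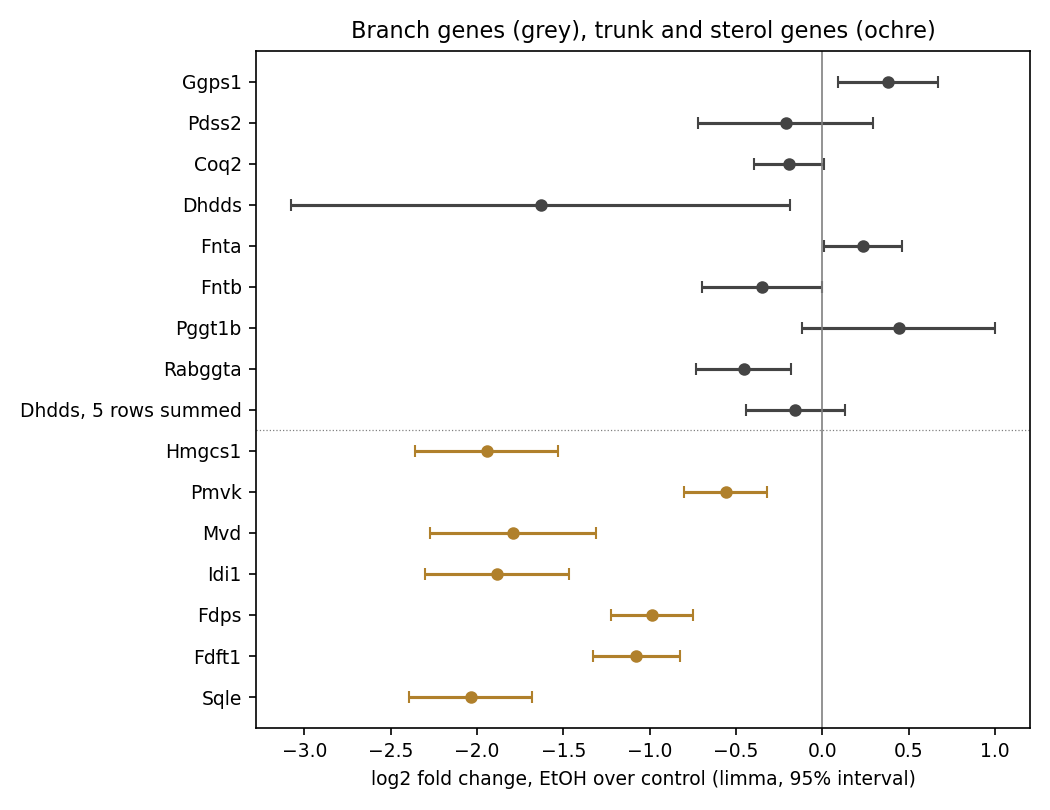
log2 fold change of EtOH over control livers by limma with 95% intervals, for the 8 branch genes and Dhdds with its 5 rows summed (grey) and for Hmgcs1, Pmvk, Mvd, Idi1, Fdps, Fdft1 and Sqle (ochre). The ochre intervals all lie below 0, from -0.56 for Pmvk to -2.04 for Sqle, whereas the grey estimates run from -1.63 for row 1 of Dhdds to 0.44 for Pggt1b.

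Relative to Fdps in the same liver, the branch genes other than Dhdds row 1 were higher in EtOH livers. In limma on the log2 ratio to Fdps, 7 of the 8 were called higher. So were 91.0% of all transcripts, since the Fdps RPKM itself fell, a fall the study's qRT-PCR did not show as significant. The median log2 difference was 0.75 for the 8 genes and 1.04 for all transcripts. The log2 ratio differences were 1.46 for Pggt1b, 1.40 for Ggps1, 1.15 for Fnta, 0.76 for Coq2, 0.75 for Pdss2, 0.71 for Fntb and 0.49 for Rabggta (adjusted p from 1.11e-05 to 0.0146), and -0.67 for Dhdds row 1 (adjusted p = 0.294).

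Transcripts of 3 enzymes that make or use farnesyl pyrophosphate were also set against each other, with Fdps and Fdft1 both lower in EtOH livers. Ggps1 stood at 0.566% ± 0.148 of the Fdps RPKM in control and 1.53% ± 0.298 in EtOH livers (SD, n = 6 each), with the highest control at 0.754% and the lowest EtOH liver at 1.11%. Fdft1 stood at 12.6% ± 1.26 and 11.1% ± 2.03 of Fdps (SD, n = 6 each; exact permutation test, p = 0.160), and the groups overlapped. Ggps1 relative to Fdft1 was 4.50% ± 1.19 in control and 14.1% ± 3.37 in EtOH livers (SD, n = 6 each), again without overlap. Groups did not overlap for 4 of the 8 genes relative to Fdps (Ggps1, Coq2, Fnta and Pggt1b), against 31.6% of all transcripts, and for the same 4 relative to Fdft1, against 35.0%.

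**Figure D4:**
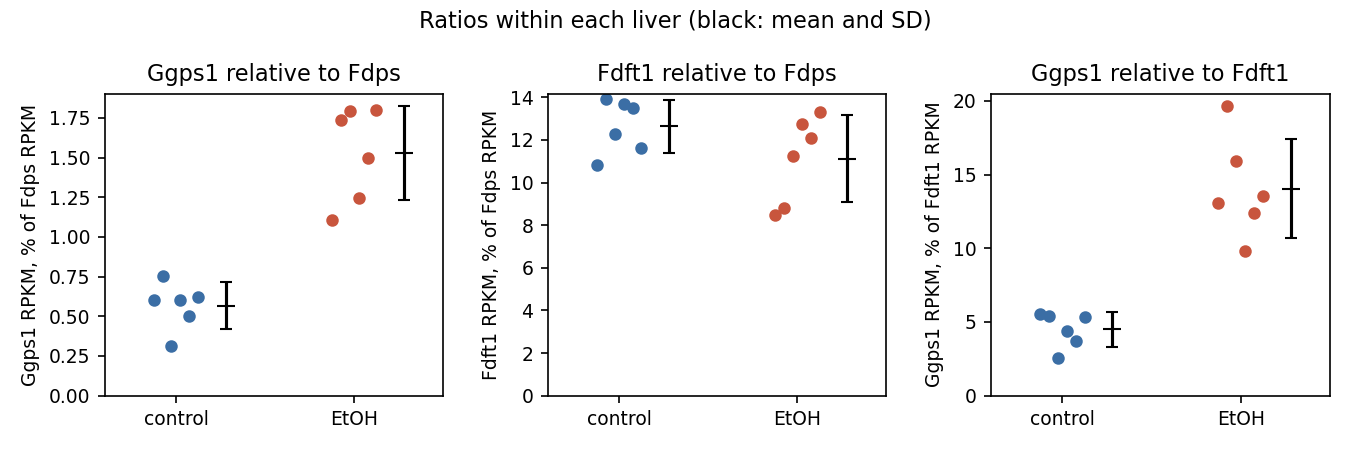
Ratios of RPKM within each liver, in percent, for Ggps1 over Fdps, Fdft1 over Fdps and Ggps1 over Fdft1, with control livers in blue, EtOH livers in red and mean and SD in black (linear axes from 0). Both Ggps1 ratios separate the groups, with EtOH livers at 1.11% or more of Fdps, and the Fdft1 to Fdps ratio overlaps.

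Genes further along the branches were called about as often as all tested transcripts, many of which were at lower levels. Over the 4 lists of ubiquinone synthesis, dolichol and its sugar chain, processing of prenyl groups and other isoprenoid use, 39 genes were tested, of which 1 was called lower and 0 higher, or 2.56% against the 2.42% of all transcripts. These 39 all averaged 1 RPKM or more, and a fit of such transcripts alone called 857 of 11086, a larger share. Over all 65 tested genes of the pathway lists, trunk and sterol branch included, that fit called 11, against 10 in the main fit. How many of these were among the 39 was not counted separately. The median log2 fold change of the 39 in the main fit was -0.00038. The called gene was Alg2, a mannosyltransferase that extends the sugar chain on dolichol pyrophosphate. Alg2 ran from 4.82 to 10.1 RPKM in control livers (median 6.44) and from 2.05 to 4.20 in EtOH livers (median 2.81), with no overlap, and fell by 1.01 on the log2 scale (SE 0.19, adjusted p = 0.0215, limma). It was called in all 23 alternatives run for single transcripts, with adjusted p values from 0.00896 to 0.0486. In the dolichol list 1 of 20 tested genes was called, and the median was -0.05. Nus1, the partner of Dhdds, had a log2 fold change of -0.09 (adjusted p = 0.673, limma).

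In the ubiquinone list 0 of 10 genes were called by limma, 3 had an unadjusted p under 0.05, all with values below 0, and the median was -0.08. That share is near the 24.3% of all transcripts averaging 1 RPKM or more (15.5% of all tested) that passed the same limit. The smallest p belonged to the row named Cabc1, an older symbol of Adck3 (Coq8a), an atypical kinase of ubiquinone synthesis. It was at 152 to 185 RPKM in control and 108 to 145 in EtOH livers, without overlap, with a log2 fold change of -0.23 (SE 0.06) and an adjusted p of 0.0875 by limma. Among the 7 genes that serve or process prenylated proteins, 0 were called by limma, 2 had an unadjusted p under 0.05 with values above 0, again near those 24.3%, and the median was 0.18. The smallest p was that of Zmpste24, the protease that matures prelamin A, with a log2 fold change of 0.27 (SE 0.07, adjusted p = 0.0735, limma).

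Of 18 tested genes whose products carry a prenyl group, 1 was called lower and 0 higher, beside 2.42% of all transcripts called in either direction, and the median log2 fold change was -0.01. The called gene was Lmna, whose product prelamin A is farnesylated before it is cut. Lmna ran from 15.1 to 19.5 RPKM in control and from 9.41 to 13.2 in EtOH livers, without overlap, and fell by 0.38 on the log2 scale (SE 0.07, adjusted p = 0.0224, limma). Without control liver 2 its adjusted p was 0.0501, and without EtOH liver 3 it was 0.0508. The small GTPases Rhoa, Rac1, Cdc42 and Nras had log2 fold changes from 0.03 to 0.24, none called; these 4 were picked for naming after their values were seen.

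**Figure D5:**
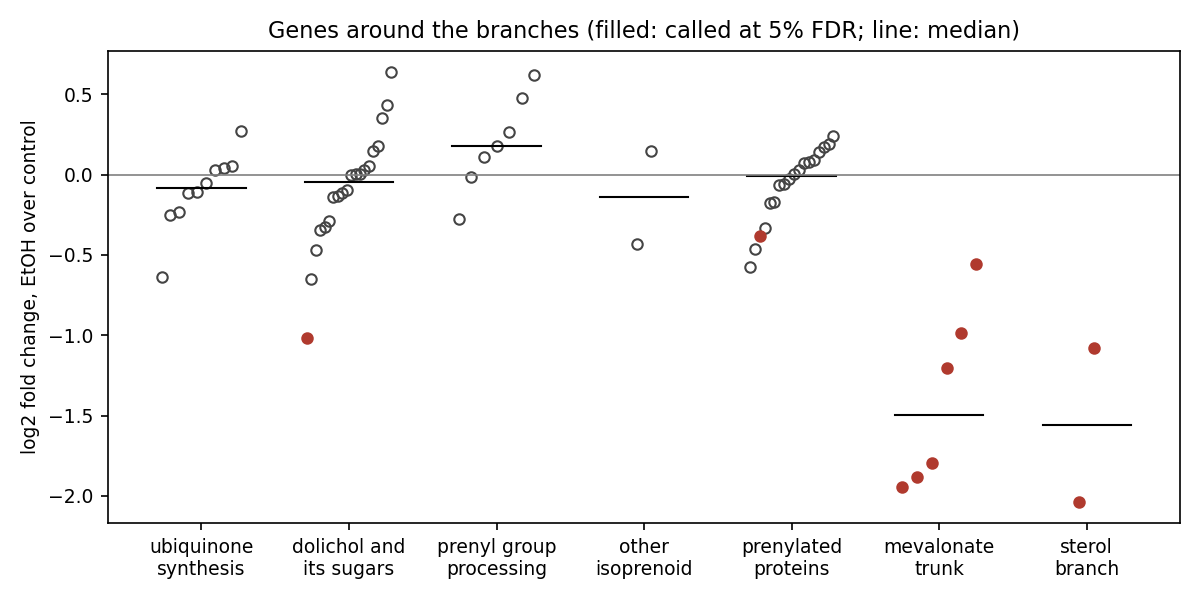
log2 fold change by limma of each tested gene in 7 lists around the pathway, with filled points for genes called at an adjusted p under 0.05 and a line at the list median. Every point of the trunk and sterol branch lists is filled and below 0, and among the other 5 lists only Alg2 and Lmna are filled.

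For each of the 8 genes, the transcript with the most similar variation between animals was sought among 11082 transcripts (11078 for Dhdds) averaging 1 RPKM or more, by Pearson r over the 12 livers after each group was centred on its own mean. The closest were Cdkn2aipnl for Rabggta (r = 0.95), LOC100360077 for Pggt1b (r = 0.95), Atg4b for Dhdds row 1 (r = 0.92), Atg9a for Coq2 (r = 0.92), UP3_RAT for Fntb (r = 0.90), Fgfr2 for Fnta (r = 0.89), Sept11 for Pdss2 (r = 0.88) and S38A6_RAT for Ggps1 (r = 0.88). The Spearman rank correlation was 0.83 to 0.98 for these pairs, and r without the 2 livers farthest from the median was 0.75 to 0.96. As the highest of many and from shared libraries, these values are a description and carry no p. None of the closest transcripts was called, with adjusted p values from 0.166 to 0.993 (limma).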

How the data were processed

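Reads of 101 nucleotides, in pairs, were mapped by the authors in CLCbio Genomics Workbench 4.9, and they deposited RPKM for each liver and 34391 transcripts. RPKM divides reads by transcript length and by mapped reads, so a strongly changing abundant transcript shifts all others, and the values carry no counting error of their own. Columns with the authors' own fold changes, test statistics and p-values were not used. Genome build and read assignment between rows of a gene are not given in the sources used here.

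The 6 EtOH and 6 control livers were grouped by their labels. log2(RPKM + 0.5) was quantile normalized and compared with limma 3.58.1 (R 4.3.3) with a mean-variance trend, Benjamini-Hochberg adjustment over 21718 transcripts above 0 in at least 1 liver and a threshold of 0.05. The methods of the study name square-root values and an unmoderated pooled test, kept as an alternative. Single values, not normalized between livers, were compared by two-sided exact permutation over 924 regroupings (scipy 1.17.1, numpy 2.4.6, pandas 2.3.3, Python 3.11.15). Ratios to Fdps were fitted with limma on log2 differences within livers. Whole reads were recovered from the RPKM steps for 21718 of 21718 transcripts within 0.01 reads and entered limma voom as an alternative. The smallest whole counts that fit were taken, so counts that share a common factor would come out too low. The 2052 transcripts above 0 in only 1 liver were set to 1 read by this rule, so their recovery was fixed in advance. The fit was tested on simulated data. Other alternatives were pseudocounts of 0.1 and 1, no normalization, median scaling, minimum mean RPKM of 0.1 or 1, no trend, an animal-number block, summed rows and each liver left out.

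Members and lists were chosen with earlier results of these data known. Named are all members, Fdps and Fdft1, every called gene and the smallest p of each list, and the closest transcript of each member. Of the list genes, those without a row of their name, or an older name in RefSeq GRCr8, were not analysed here. A few list genes are not reported here by name, for a reason unrelated to their values, and remain in the counts.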

Additional observations from a re-analysis of the deposited data

Results flagged for a closer look

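In the Dhdds rows, EtOH liver 1 stood apart from the other EtOH livers in row 5, at 14.8 RPKM, by a gap larger than Dixon's 95% limit for 6 samples. It is the liver in which row 1 was at 0 and all 114 Dhdds reads lay in rows 3 and 5. Of the 26 groups of 6 livers looked at, this was the only one past the limit, and chance alone passes about 1 in 20.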

How the results depend on the processing

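The differences of the 8 genes between groups kept their sign in all 24 alternatives, 12 of which left out a liver and kept all others. On square-root values they were differences of square-root RPKM, elsewhere log2 fold changes. Of these 192 values, 188 stayed on their side of the threshold and 4, all of Rabggta, passed it. The number of the 8 genes called was 1 without normalization between livers, 1 at a mean RPKM of at least 1, 1 in limma voom, and 0 to 1 when a liver was left out (1 without control liver 1). The number of all transcripts called, 526 in the fit reported, was 857 at a mean RPKM of at least 1, where fewer transcripts were tested, 977 with rows summed, 322 in the pooled-error test on square-root values, and 212 to 656 when a liver was left out; the causes were not otherwise tested. It was 275 without control liver 2, 285 without control liver 4, and 212, 252, 295 and 298 without EtOH livers 2, 3, 4 and 5. The ratio to Fdps was called for 19798 transcripts, 19770 of them higher, and for 9935 at a mean RPKM of at least 1, where fewer were tested; the count of 7 members was the same in all 18 alternatives. The lists outside the markers had 10 calls, and 9 to 13 in the alternatives. Among marker genes, Cd163 was called in 8 of 23 alternatives, Clec4f in 15 and Cps1 in 18.

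Animals that share a number deviated together with r from -0.07 to 0.03 and only number 1 matched its own number best, so the numbers do not pair them. With the number as a replicate block, 113 transcripts and 0 of the 8 genes were called, and adjusted p values were 0.122 for Lmna and 0.112 for Cps1.

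Depth limits what these values can show: with 7 to 34 reads of Pggt1b in a liver, the interval of its change reached from 0.923-fold to 2.00-fold.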
